A study of Mus musculus with 12 samples.

Results

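5-Formylcytosine (5fC) positions that were listed on directly neighbouring bases of the genome were examined in mouse embryonic stem cells that keep the DNA glycosylase TDG. A pair was defined as 2 sites of the control list exactly 1 base apart on chromosomes 1 to 19. There were 862 such pairs, and they used 1724 of the 32614 autosomal control sites (5.29%). Both deposited lists together held 171712 sites. No 3 consecutive bases were listed in control cells, so no control site belonged to more than 1 pair. The pairs were chosen by the positions in the control list, and everything below that comes from the control list alone is a description. The knockout list had no part in this rule, although members and comparisons were chosen with earlier results of these data known.

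The cells were feeder-free mouse embryonic stem cell lines of strain C57BL/6-ICR, grown with serum and LIF. Knockout cells were Tdg -/- and control cells Tdg fl/fl, and the sources used here do not say whether a line was 1 clone or whether the floxed cells carried a Cre. Per the labels, 5fC was coupled to an azide-bearing indandione, read as T after amplification, and pulled down through biotin, with 2 biological replicates per cell line for pull-down, labelled input and unlabelled input. Each genotype has 1 deposited list of base positions on mm9, with no level, read depth, strand or replicate, so no difference between genotypes has a replicate check or a p-value, and the precision that depth would give is unknown. The lists hold no value for Tdg or for any stem cell marker, so neither the genotypes nor the cell type were checked from the data.

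5fC is made when TET enzymes oxidise 5-methylcytosine by way of 5-hydroxymethylcytosine. TDG excises 5fC, and base excision repair then puts an unmodified cytosine in its place. Methylation in mammals sits mostly in CpG dinucleotides, which read the same on both strands, so its cytosines on opposite strands occupy neighbouring coordinates. A CpG listed on both strands would therefore appear as an adjacent-base pair. The base sequence at the pairs was not analysed here, and the lists do not say whether both bases of a pair were modified on the same DNA molecule.

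The spacing of 1 base stood out among short distances in the control list. Successive control sites were 1 base apart 862 times, 2 bases apart 11 times, 3 bases apart 13 times, 4 bases apart 26 times and 5 bases apart 40 times. Distances of 6 to 10 bases occurred between 33 and 42 times each. In the knockout list the same distances of 1, 2, 3, 4 and 5 bases occurred 13518, 128, 260, 403 and 509 times. Both lists thus had few sites just outside the distance that defines a pair.

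Most control pairs were found again, at least in part, in cells without TDG. Both bases were listed in knockout cells for 271 of the 862 pairs (31.4%, exact 95% interval 28.3 to 34.7). Exactly 1 base was listed for 390 pairs (45.2%, 41.9 to 48.6), and neither base for 201 pairs (23.3%, 20.5 to 26.3). At least 1 base was therefore shared by 661 pairs (76.7%, 73.7 to 79.5). As background, over all 31752 control pairs and unpaired control sites taken as 1 position each, 50.0% had their own or an adjacent base listed in knockout cells, and 10.2% had both. Most of these positions were unpaired sites, whose adjacent base was by definition not in the control list. Intervals here and below cover counting error only.

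Paired and unpaired control sites were first compared base by base, so that each listed base had 1 chance of being listed again. Of the 1724 bases in control pairs, 932 (54.1%, 51.7 to 56.4) were listed at the identical position in knockout cells. Of the 30890 unpaired control sites, 12857 (41.6%, 41.1 to 42.2) were, and over all autosomal control sites the share was 42.3%. Paired bases were thus listed again more often by 12.4 percentage points (Newcombe 95% interval of the difference 10.0 to 14.8), on 18 of 19 autosomes. The exception was chromosome 12, with 43.3% of paired bases and 45.3% of unpaired sites. The share for paired bases was 54.1% ± 6.62 (SD, n = 19 autosomes), the lowest being 43.3% and the highest 67.5%, and that for unpaired sites 41.5% ± 1.93. The interval of the difference treats the bases of a pair as independent, although they share a position.

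Counted per position, the gap was wider. A control pair had at least 1 base listed in knockout cells in 76.7% of cases, while an unpaired control site or a base next to it was listed in 15210 of 30890 cases (49.2%, 48.7 to 49.8). The difference was 27.4 points (24.5 to 30.2), in the same direction on all 19 autosomes. A pair offers 2 listed bases and an unpaired site only 1, which raises the share for pairs by construction. Both bases of a pair were listed in 31.4% of cases, whereas an unpaired site and its neighbour were both listed in 2958 cases (9.58%, 9.25 to 9.91). That difference was 21.9 points (18.8 to 25.1), and it was seen on 18 of 19 autosomes, the exception being chromosome 18, which had 12 pairs and 1 with both bases listed. It is also set in part by construction. Both bases of a pair were control sites, and the neighbour of an unpaired site was by definition not. The product of the shares of lower and upper bases alone would give 252 of the 862 pairs with both listed.

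**Figure D1:**
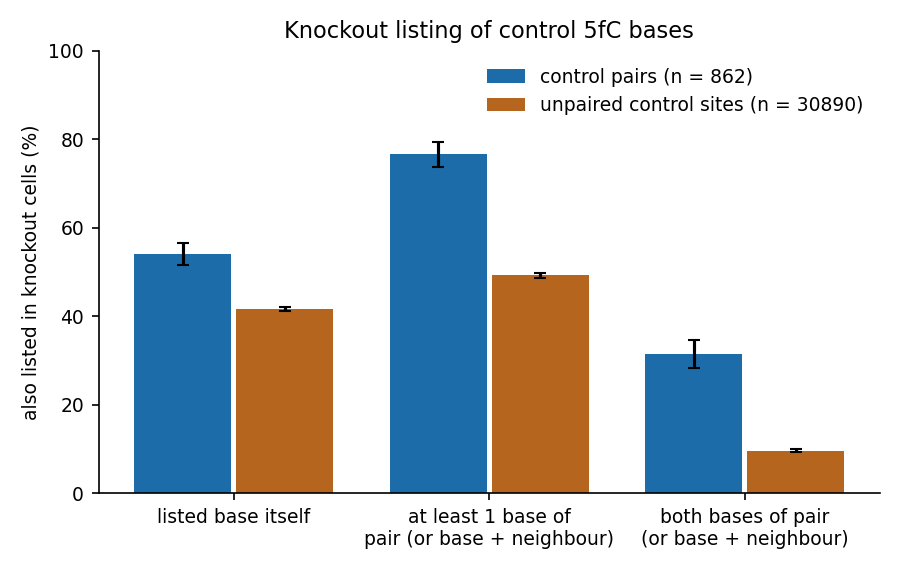
Share of control positions (%, y axis) also listed in knockout cells, for the listed base itself, for at least 1 base and for both bases (x axis); blue bars are control pairs, brown bars unpaired control sites, and error bars are exact 95% intervals. The first bar rests on the 1724 bases of the 862 pairs. Control pairs were higher in each measure, at 54.1% against 41.6%, 76.7% against 49.2% and 31.4% against 9.58%. The measures for at least 1 base and for both bases differ in part by construction, since only pairs had a second control site.

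Once a control base was listed in knockout cells, the base beside it was listed more often for pairs than for unpaired sites. Part of this follows from the grouping. The partner in a pair was itself a control site, and the base beside an unpaired site was by definition not. Of the 932 paired bases listed in knockout cells, 542 (58.2%, 54.9 to 61.3) had their partner listed too. Of the 12857 unpaired control sites listed in knockout cells, 2958 (23.0%, 22.3 to 23.7) had an adjacent base listed. For unpaired control sites that were not listed in knockout cells, the adjacent base was listed in 2353 of 18033 cases (13.0%, 12.6 to 13.5). In pairs whose upper base was not listed, the lower base was listed in 47.0% of cases. The upper base was listed in 51.3% of pairs whose lower base was not. No unpaired control site had knockout sites on both sides.

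Within pairs, the listing of one base went with that of the other to a small degree. The lower base was listed in knockout cells in 271 of 483 pairs whose upper base was listed (56.1%, 51.6 to 60.6), and in 178 of 379 pairs whose upper base was not (47.0%, 41.9 to 52.1). Pairs with both bases listed numbered 271, and the product of the shares of lower and upper bases would give 252, a ratio of 1.08. Lower bases were listed in 449 pairs (52.1%, 48.7 to 55.5) and upper bases in 483 (56.0%, 52.6 to 59.4). Among the 390 pairs with 1 base listed, it was the upper one in 212 (54.4%, 49.3 to 59.4), an interval that includes an even split. Since neither list gives a strand, a lower or upper base was not assigned to a strand from the data.

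Seen from the knockout list, the control pairs were a small subset of the sites on neighbouring bases. The knockout list held 13518 adjacent-base pairs on autosomes, and 271 of them (2.00%, 1.78 to 2.26) were also control pairs. A further 2958 (21.9%, 21.2 to 22.6) had 1 base in the control list, and 10289 (76.1%, 75.4 to 76.8) had none. Knockout sites in pairs used 19.5% of the autosomal knockout list, against 5.29% for pairs in the control list. The lists also differed in length, with 138649 and 32614 autosomal sites, and the cause of the difference in share was not tested.

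Bases of knockout pairs were listed in control cells in 3500 of 27036 cases (12.9%, 12.5 to 13.4), and unpaired knockout sites in 10289 of 111615 cases (9.22%, 9.05 to 9.39). Over all autosomal knockout sites this share was 9.95%. If 1 base of a knockout pair was listed in control cells, its partner was listed there as well in 15.5% of cases (542 of 3500, 14.3 to 16.7).

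Knockout 5fC sites lay closer to control pairs than to unpaired control sites, with the difference at short range. Sites on the pair itself and on the bases touching it were left out of these counts. Of the 862 pairs, 455 (52.8%, 49.4 to 56.2) had another knockout site 2 to 100 bases away, against 13243 of 30890 unpaired sites (42.9%, 42.3 to 43.4) and a background of 43.1% over both. The difference was 9.91 points (6.53 to 13.3), and pairs were higher on 18 of 19 autosomes, with chromosome 18 the exception. The mean number within 100 bases was 0.813 ± 0.989 for pairs and 0.633 ± 0.888 for unpaired sites (SD over positions), a difference of 0.180 (normal 95% interval 0.113 to 0.247) with pairs higher on all 19 autosomes. Over 101 to 1000 bases the means were 1.39 and 1.40, a difference of -0.012 (-0.117 to 0.092), with pairs higher on 9 of 19. Intervals for mean numbers, here and below, treat positions as independent, although a site near several positions was counted for each.

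Divided more finely, the density of knockout sites around pairs fell from 6.06 per kb at 2 to 10 bases to 4.83 at 11 to 50, 3.18 at 51 to 100 and 2.09 at 101 to 200 bases. Around unpaired sites it was 3.87, 3.81, 2.59 and 1.76 per kb at these distances. The ratio of pairs to unpaired sites was 1.57, 1.27, 1.23 and 1.18 in turn. With positions treated as independent, the interval of the difference in mean number excluded 0 in each of these ranges. At 201 to 500 and 501 to 1000 bases the ratios were 0.929 and 0.923, with intervals of the difference that included 0. From 1001 to 10000 bases the density was 0.250 per kb around pairs and 0.238 around unpaired sites, again with an interval that included 0.

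**Figure D2:**
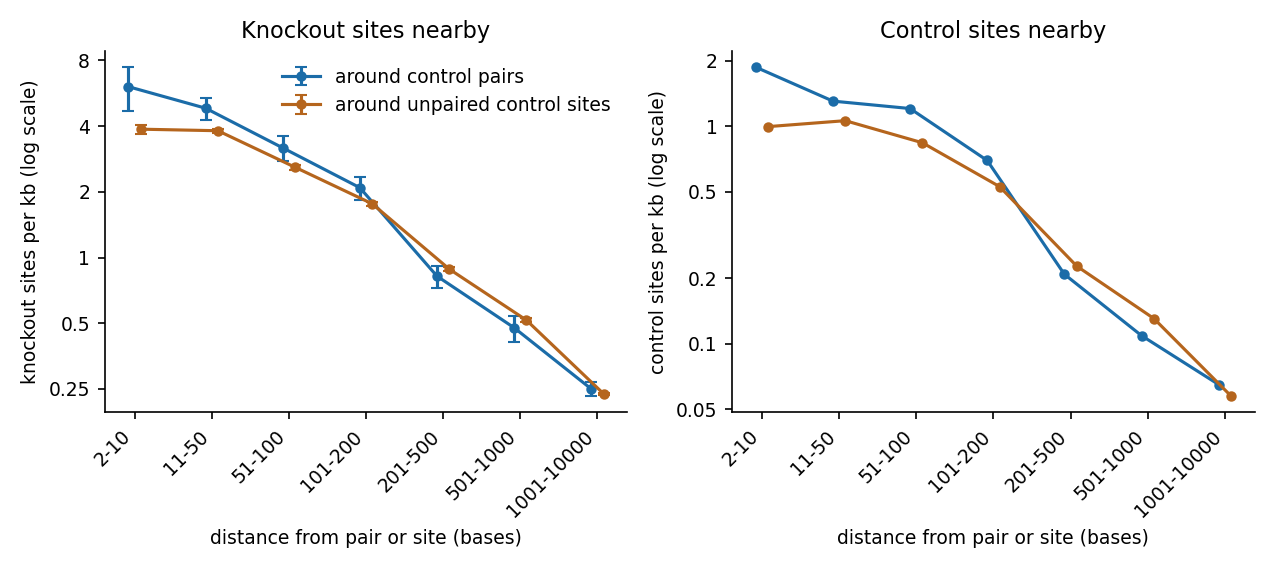
Density of other listed sites (sites per kb, log scale) against distance from a control pair or an unpaired control site (bases); knockout sites are on the left, with 95% intervals, and control sites on the right, as means without intervals because the control list chose the pairs. Both densities were higher around pairs (blue) than around unpaired sites (brown) up to 200 bases, and the curves met or crossed beyond, from 6.06 against 3.87 knockout sites per kb at 2 to 10 bases to 0.822 against 0.885 at 201 to 500.

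Within wider windows pairs and unpaired sites differed by fewer points. Another knockout site lay within 1 kb of 724 pairs (84.0%, 81.4 to 86.4) and of 25010 unpaired sites (81.0%, 80.5 to 81.4), beside a background of 81.0%. The difference was 3.03 points (0.392 to 5.36), with pairs higher on 14 of 19 autosomes, and it was 2.61 points (-0.094 to 5.01) when each group of pairs at most 10 kb apart was counted once. Within 10 kb, 810 pairs (94.0%) and 93.8% of unpaired sites had another knockout site, against a background of 93.8%. Pairs had a median of 2 other knockout sites within 1 kb, the most being 10, and a median of 5 within 10 kb, the most being 35. The median distance from a pair to the nearest other knockout site was 88 bases, and from an unpaired site 141 bases.

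Shares with another control site nearby were somewhat higher for pairs than for unpaired control sites. Another control site lay within 100 bases of 195 pairs (22.6%), within 1 kb of 363 (42.1%) and within 10 kb of 611 (70.9%). For unpaired control sites these shares were 16.4%, 39.6% and 67.2%, and over all control positions 16.5%, 39.7% and 67.3%. The mean number of other control sites within 10 kb was 1.80 ± 1.98 (SD) for pairs and 1.60 ± 1.78 for unpaired sites, and the highest number around a pair was 14. A pair was at a median of 2072 bases from the nearest other control site, and an unpaired site at 2856 bases.

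Knockout sites near the control pairs were also looked at for their own neighbours. Of the 701 knockout sites counted within 100 bases of a control pair, 184 (26.2%) belonged to a knockout pair, and of the 19564 counted around unpaired control sites 4627 (23.7%) did. A site near several positions was counted for each, so these shares have no interval. The shares of those neighbours that were listed in control cells as well were 16.8% around pairs and 13.8% around unpaired sites.

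No difference in surroundings was detectable between pairs grouped by how many of their bases were listed in knockout cells. The mean number of other knockout sites within 1 kb was 2.11 ± 1.76 for the 271 pairs with both bases listed, 2.22 ± 1.82 for the 390 with 1 base listed and 2.30 ± 1.76 for the 201 with neither. Within 10 kb the means were 6.77 ± 5.44, 6.61 ± 5.37 and 6.79 ± 5.70. Other control sites within 10 kb numbered 1.89 ± 2.00, 1.77 ± 1.92 and 1.75 ± 2.05. Over both lists, 3 window sizes and each contrast between the classes, 18 differences in mean number were computed, and 0 had a 95% interval that excluded 0. For pairs with both bases listed against neither, the difference was -0.191 knockout sites (-0.512 to 0.129) within 1 kb and 0.147 control sites (-0.223 to 0.517) within 10 kb. Another knockout site lay within 100 bases of 54.6%, 54.1% and 47.8% of pairs with 2, 1 and 0 bases listed. Between 2 and 0 the difference was 6.85 points (-2.25 to 15.8). Among unpaired control sites this share was 46.8% for those listed in knockout cells and 40.0% for those not. The interval for pairs is too wide to say whether they differ likewise.

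Pairs with neither base listed had knockout sites nearby about as often as control positions in general. Of the 201 pairs with neither base listed, 96 (47.8%) had a knockout site 2 to 100 bases away, 173 (86.1%) within 1 kb and 186 (92.5%) within 10 kb. Over all control pairs and unpaired sites these shares were 43.1%, 81.0% and 93.8%. The median distance to the nearest other knockout site was 114 bases for pairs with neither base listed, 83 bases for pairs with both listed and 141 bases for unpaired sites. That left 15 pairs with neither base listed and no knockout site within 10 kb.

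The comparison of paired bases with unpaired sites was repeated by the number of surrounding knockout sites. With no other knockout site within 1 kb, 57.6% of paired bases (159 of 276, 51.5 to 63.5) and 40.8% of unpaired sites were listed in knockout cells, a difference of 16.8 points (10.7 to 22.6). With 1 or 2 such sites the shares were 53.3% and 42.0%, a difference of 11.3 points (7.75 to 14.7). With 3 to 5 they were 54.5% and 41.2%, a difference of 13.3 points (8.90 to 17.5). With 6 or more they were 47.7% (41 of 86, 36.8 to 58.7) and 43.1%, a difference of 4.62 points whose interval of -5.93 to 15.4 included 0. In that last group, at least 1 base was listed more often for pairs by 18.0 points (2.94 to 29.9), and both bases by 14.7 points (3.89 to 29.4). Those measures differ in part by construction. By knockout sites within 100 bases, unpaired sites were listed in 38.7%, 44.9% and 46.5% of cases with 0, 1 and 2 or more. Paired bases were listed in 52.2%, 56.3% and 54.8%. The differences were 13.5 points (9.98 to 17.0), 11.3 (7.11 to 15.5) and 8.28 (2.74 to 13.7).

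**Figure D3:**
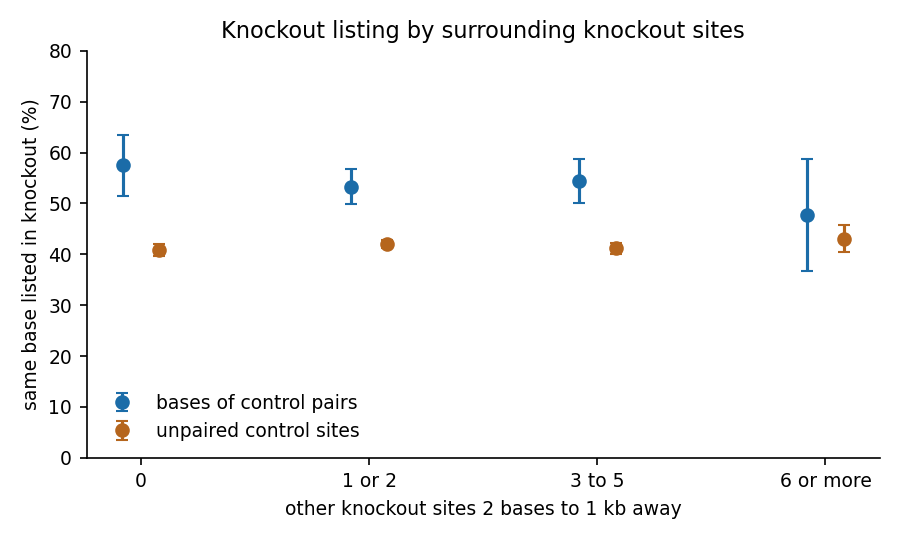
Share of control bases listed at the same position in knockout cells (%, y axis) by the number of other knockout sites 2 bases to 1 kb away (x axis), for bases of control pairs (blue) and unpaired control sites (brown), with exact 95% intervals. For this window of 1 kb, unpaired sites stayed between 40.8% and 43.1%, and paired bases between 47.7% and 57.6%, with overlapping intervals at 6 or more.

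Isolated pairs fell into all 3 classes as well. No other control site lay within 10 kb of 251 pairs, and of these 72 (28.7%) had both bases listed in knockout cells, 115 (45.8%) had 1 and 64 (25.5%) had neither. Single bases of these pairs were listed in 51.6% of cases, against 41.5% of the 10128 unpaired sites as isolated in the control list, a difference of 10.1 points (5.58 to 14.5). Of the 37 pairs with no further site of either list within 10 kb, 13 had both bases listed, 14 had 1 and 10 had neither. Their single bases were listed in 40 of 74 cases (54.1%, 42.1 to 65.7) and those of the 1459 equally isolated unpaired sites in 43.4%. The interval of this difference, -0.891 to 21.8 points, included 0. For the same positions, at least 1 base was listed more often for pairs by 22.3 points (6.10 to 34.2), and both bases by 24.6 points (11.2 to 40.8). As above, those measures differ in part by construction.

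Control pairs were found on each of the 19 autosomes. Chromosome 11 held 92 pairs, chromosome 2 held 63, and chromosomes 4 and 8 held 62 each. Chromosome 18 held 12, chromosome 13 held 20 and chromosome 16 held 21. The median was 49 pairs per chromosome. Per Mb between the first and last listed site, there were 0.359 ± 0.140 pairs (SD, n = 19 autosomes), with 0.137 on chromosome 18 as the lowest and 0.775 on chromosome 11 as the highest.

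**Figure D4:**
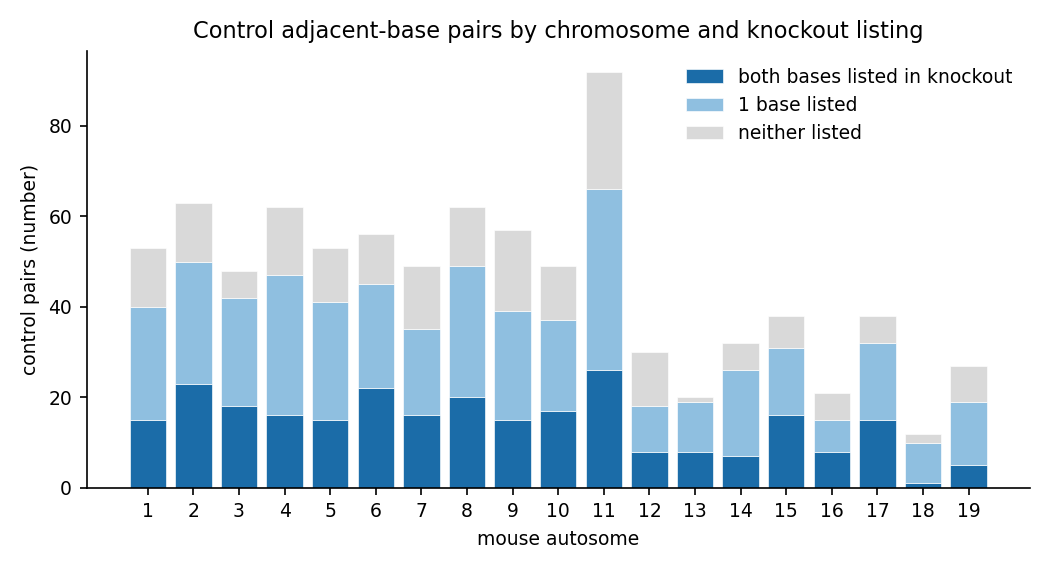
Number of control pairs (y axis) on each mouse autosome (x axis), divided into pairs with both bases listed in knockout cells (dark blue), 1 base (light blue) and neither (grey). All 3 classes occurred on every autosome, from 1, 9 and 2 pairs on chromosome 18 to 26, 40 and 26 on chromosome 11.

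Part of this spread followed the number of control sites, so pairs were also set against all control positions. Over all autosomes there were 27.1 pairs per 1000 control pairs and unpaired sites (25.4 to 29.0). Chromosome 11 had the highest value, 35.0 (28.3 to 42.7). The lowest were on chromosome 13, with 15.5 (9.48 to 23.8), and chromosome 18, with 12.3 (6.38 to 21.4). The mean over autosomes was 26.4 ± 6.05. Knockout pairs, which were far more numerous, numbered 108 ± 5.92 per 1000 knockout positions, with 106 on chromosome 11, 101 on chromosome 13 and 100.3 on chromosome 18. The control list chose the pairs, so the frequencies of control pairs are a description, and differences between the 19 chromosomes were not tested. With 19 chromosomes looked at, some values far from the overall one can arise from counting alone.

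**Figure D5:**
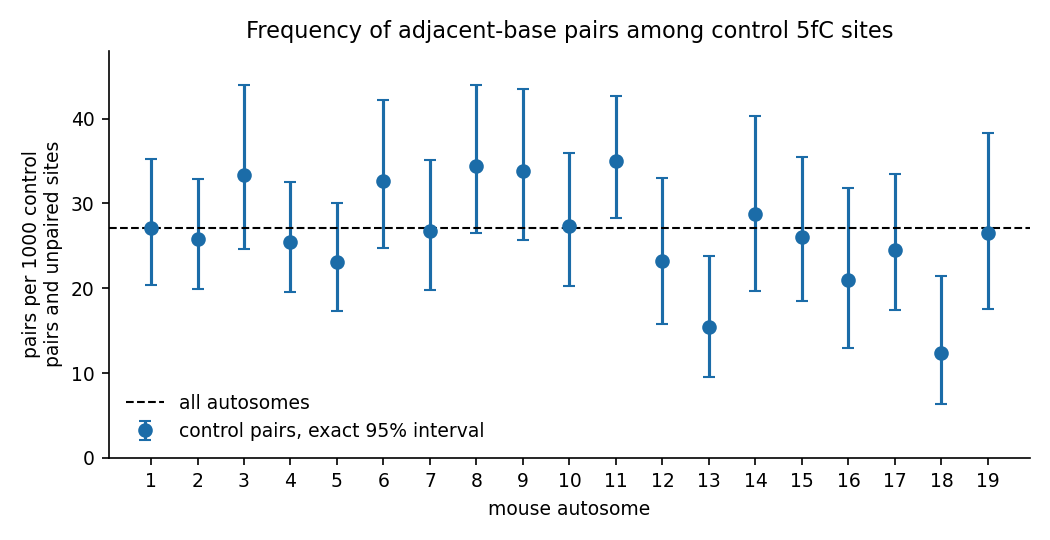
Control pairs per 1000 control pairs and unpaired sites (y axis) on each mouse autosome (x axis), with exact 95% intervals from counting; the dashed line is the value over all autosomes, 27.1. Chromosome 11 had the highest value, and chromosomes 13 and 18 the lowest. The control list chose the pairs, so the values are a description, and differences between chromosomes were not tested.

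The share of pairs recovered in knockout cells also varied by chromosome. On chromosome 13, 8 pairs had both bases listed, 11 had 1 and 1 had neither, so 19 of 20 were recovered at least in part. On chromosome 12, 8 had both, 10 had 1 and 12 had neither, so 18 of 30 were. Chromosome 11 split into 26, 40 and 26. The counts on single chromosomes are small, and the share with at least 1 base listed averaged 77.3% ± 7.77 (SD over 19 autosomes).

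Along the chromosomes, pairs and unpaired control sites were both most frequent in the high-coordinate stretch. When each autosome was cut into 5 equal stretches from its first to its last listed site, the stretches held 132, 141, 163, 164 and 262 pairs in order of coordinate. That is 15.3%, 16.4%, 18.9%, 19.03% and 30.4% of the pairs, and unpaired control sites had 14.4%, 16.5%, 16.1%, 21.0% and 32.0%. Mouse autosomes have their centromere at the low-coordinate end. The share of pairs with both bases listed in knockout cells was 34.1%, 28.4%, 35.0%, 28.7% and 31.3% in the same order.

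Most pairs had no other pair within 10 kb, at an average of 0.359 pairs per Mb over autosomes. The number of close pairs that this density would give was not computed, so the counts below do not say whether pairs clustered. Successive pairs on a chromosome were a median of 1102220 bases apart, and 28 of these distances were at most 10 kb. Joining pairs at most 10 kb apart gave 834 groups, of which 26 had more than 1 pair and 2 had 3 pairs, the largest number. Of windows of 10 kb, 845 held a pair and 17 held 2.

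The first group of 3 was on chromosome 10, in mm9 coordinates as listed. Its pairs were at 111349340 and 111349341 with neither base listed in knockout cells, at 111350311 and 111350312 with both listed, and at 111358922 and 111358923 with the lower base listed. Each of these had 8 other control sites within 10 kb. The second group was on chromosome 11, with both bases listed at 54785228 and 54785229 and at 54785945 and 54785946, and the lower base listed at 54795818 and 54795819. These had 5, 7 and 4 other control sites within 10 kb. Each group thus mixed classes of pair, where 31.4%, 45.2% and 23.3% of all pairs had 2, 1 and 0 bases listed.

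The pairs in the densest control surroundings were named by class. Among those with both bases listed in knockout cells, the pair on chromosome 11 at 99005118 and 99005119 had 13 other control sites and 35 other knockout sites within 10 kb. A pair on chromosome 12 at 20232911 and 20232912 had 13 and 33, and one on chromosome 16 at 90160152 and 90160153 had 9 and 18. The pair on chromosome 15 at 78637441 and 78637442 had 7 and 23, and the remaining member was the pair of the chromosome 10 group with both bases listed, with 8 and 8. By this choice, the named pairs had 7 to 13 other control sites within 10 kb, where the median for all pairs was 1.

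Among pairs with 1 base listed, that on chromosome 12 at 20232907 and 20232908 had 13 other control and 34 other knockout sites within 10 kb, and its lower base was the listed one. Its upper base lay 3 bases below the lower base of the chromosome 12 pair just named. The upper base was the listed one on chromosome 16 at 90167185 and 90167186, with 9 and 15 sites, and on chromosome 17 at 81052230 and 81052231, with 8 and 12. The lower base was listed on chromosome 4 at 141019648 and 141019649, with 9 and 10, and in the chromosome 10 group, with 8 and 9.

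Pairs with neither base listed could also be surrounded by knockout sites. The pair on chromosome 11 at 87937396 and 87937397 had 14 other control and 26 knockout sites within 10 kb, and the nearest knockout site was 101 bases away. On chromosome 7, the pair at 77492327 and 77492328 had 12 and 15, with a knockout site 3 bases away. On chromosome 14, that at 121294280 and 121294281 had 8 and 20, and on chromosome 4, that at 41041382 and 41041383 had 7 and 18, with the nearest knockout sites 459 and 267 bases away. The remaining one was in the chromosome 10 group, with 8 and 10 sites and a knockout site 69 bases away.

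At the other end were pairs far from any other control site. The pair on chromosome 3 at 47464605 and 47464606 had no other control site within 1170150 bases and no other knockout site within 1170360 bases, and both of its bases were listed in knockout cells. On chromosome 14 at 115927470 and 115927471 the nearest other control site was 1124440 bases away, the upper base was listed in knockout cells, and another knockout site was 3 bases away. On chromosome 4 at 49676006 and 49676007 the lower base was listed, with the nearest other control site 1001470 bases away, and on chromosome 6 at 102704382 and 102704383 the upper base was, with 915083 bases. On chromosome 7 at 92831742 and 92831743 neither base was listed, although a knockout site lay 164 bases away and the nearest other control site 792857 bases away.

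Of the pairs with neither base listed, the one farthest from a knockout site was on chromosome 5 at 19772045 and 19772046, with 206897 bases to the nearest. Next were chromosome 6 at 13174656 and 13174657 with 127105 bases and at 93303457 and 93303458 with 55339 bases, the latter with another control site 30 bases away. Chromosome 9 at 60449724 and 60449725 had 47904 bases, and chromosome 4 at 147701507 and 147701508 had 44334 bases, with 3 other control sites within 10 kb. These pairs were listed in control cells in stretches without knockout sites. What is annotated at the named positions was not analysed here.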

How the data were processed

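The values are base positions in 1 deposited list per genotype, each with 3 columns (chromosome, start and end, which were equal in every row). Bismark 0.8.3, HOMER and the build mm9 are named, without roles, per the submitters' processing notes. The rule for listing a site, the use of the inputs, the pooling of replicates and whether positions count from 0 or 1 were not stated in those notes or in the labels. Genotypes were taken from the names of the lists. That each list comes from the pull-down libraries was assumed. Gene tables on GRCm38 were not joined to these positions.

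The software was scipy 1.17.1, numpy 2.4.6, pandas 2.3.3 and matplotlib 3.10.9 under Python 3.11.15. Pairs, their knockout listing and neighbours 2 or more bases away were counted by script, which was tested on simulated lists. Shares have exact Clopper-Pearson and differences Newcombe 95% intervals. Unpaired control sites, knockout pairs, isolation and numbers of neighbours served as comparisons. Named pairs are the 5 per class with the most other control sites within 10 kb, all groups of 3 or more pairs, runs of 3 bases (none found), and the 5 most remote from control or, with neither base listed, knockout sites. Pair frequencies are per 1000 control positions with a pair counted as 1, where the plan named control sites. Members and comparisons were chosen with earlier results of these data known. Ranges of distance, strata, stretches of chromosome and isolated pairs were chosen after values were seen.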

Additional observations from a re-analysis of the deposited data

How the results depend on the processing

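Of 32 alternatives run over 6 results, 29 left the result on the same side of its threshold or within its interval. Paired minus unpaired listing in knockout cells ranged from 10.2 to 13.9 points for single bases, from 24.6 to 28.7 for either base and from 21.1 to 24.1 for both bases. These covered all sequences, 1 pair per group, a margin of 1 base for either base, and neighbourhoods with another control or knockout site; 6 of them, on knockout sites within 100 bases, were added after seeing the data. Leaving out runs of 3 changed nothing in the control list, which had none. For the listing measures these alternatives could not differ, although they count among the 29. The 29 also include 3 alternatives on other control sites, which are a description. The differences for either base and for both bases are set in part by construction under each alternative. The difference in knockout sites within 1 kb was 0.199 points with a window of 10 kb and 2.61 with 1 pair per group, and both intervals then included 0; the cause was not tested. The difference in other control sites within 1 kb, 2.47 points, was 6.25 with a window of 100 bases and 3.67 with 10 kb. The value at 100 bases was counted as changed. Since the control list chose the pairs, this difference is a description and was not tested. Knockout pairs that were control pairs stayed at 2.01%. No paired analysis was possible because neither list names a replicate. Leaving out replicates and a stricter threshold or coverage minimum were not run, since the lists hold no replicates, scores or depths. Read depth is unknown, so its effect on every count was not measured.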

Other observations

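There were 5 instances of control pairs within 100 bases of each other, chosen after their values were seen. They were 4 bases apart on chromosome 12 (20232907 and 20232911, lower bases), 10 on chromosome 11 (84448693 and 84448703), 17 on chromosome 12 (57395692 and 57395709), 25 on chromosome 8 (73336462 and 73336487) and 84 on chromosome 19 (25599381 and 25599465). In each, the 2 pairs differed in how many of their bases were listed in knockout cells: 1 and 2, 1 and 0, 1 and 0, 2 and 1, and 1 and 0 in that order. Within 1 kb there were 10 such instances, and the 2 pairs differed in 8 and had the same number listed in the other 2, on chromosome 11 (54785228 and 54785945, with both bases listed in each) and chromosome 8 (95153534 and 95153785, with 1 each). Over all pairs, 31.4% had 2 bases listed, 45.2% had 1 and 23.3% had 0. With such shares, 2 pairs often differ whatever their distance. Whether close pairs differed more often was not tested.

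Outside the autosomes, 71 control sites held 2 further pairs, 1 of them on X, and both bases were listed in knockout cells for 1 of the 2.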
